A study of Polypedilum vanderplanki with 72 samples.

Results

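Among 17156 genes measured in Pv11 cells, 58 had 1.8-fold or more RNA without the transcription factor HSF1 after trehalose treatment, and stayed within 1.5-fold of wild type after heat shock. Pv11 is a cultured cell line of the sleeping chironomid Polypedilum vanderplanki, a midge with larvae that live through near-total water loss. The 58 genes were chosen from the measured values of cells lacking HSF1 (KO) and wild-type cells (WT), as means of 3 libraries in CPM, a gene's share of a library's counts scaled to a common total. A gene was taken when its KO mean in trehalose was 5 CPM or more and its ratio of KO over WT, with 0.5 CPM added to both, was 1.8 or more in trehalose and between 0.67 and 1.5 after heat shock. Of the 17156 genes, 6589 met the first criterion and 156 also the second. Of those 156, 58 met the third, 96 had a ratio above 1.5 after heat shock as well, and 2 had a ratio below 0.67. The 58 are 0.880% of the 6589 genes.

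PolyA RNA was counted in 72 libraries of 24 groups, 3 libraries each. The 7 lines that carry a single HSF1 form in the HSF1-deleted background come from the KO cells, per the labels: V1, V2, V3, V4 and V5-6 hold the P. vanderplanki splice form of that name, and Dma and Dmb the Drosophila forms HSF1a and HSF1b. These 7 lines, KO and WT make up the groups of the trehalose treatment (T48), which lasted 48 h at 600 mM, and of the heat shock (HS6h), which lasted 6 h. V1 to V5-6 and WT were also measured 24 h after the rehydration that ended 11 days of drying (R24). These R24 cells had first been kept in 600 mM trehalose for 48 h, as at T48. No KO, Dma or Dmb library was analysed at R24. The heat shock's temperature and medium are not given in the labels, nor is the promoter that drives each HSF1 form. Every group met trehalose, heat shock, or trehalose followed by drying and rehydration, so no value below is that of an unstressed cell. The lines are called clonal in the labels and each HSF1 form is represented by 1 line, so a difference between HSF1 forms and one between clones cannot be told apart. The labels do not say whether the 3 libraries of a group come from separate cultures, and p-values then measure the spread between libraries, which may be technical.

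HSF1 is the factor that, under heat and other stresses that unfold proteins, assembles into trimers, binds heat shock elements in DNA and switches on genes for chaperones. Its best-known role is therefore activation, and genes whose RNA is higher without it stand outside that role. Trehalose is the disaccharide that the midge's larvae accumulate while drying. Pv11 cells need to be kept in it before drying if they are to survive. The deposited gene IDs pair with no gene name, so HSF1's own RNA, the chaperones and the functions of the 58 genes could not be read, and the genes are given by ID.

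The T48 libraries held 3043636 to 5091075 gene counts, the HS6h libraries 4374617 to 7199241 and the R24 libraries 4951847 to 8808472. Replicate 2 of V1, V2 and V4 at R24 stood apart: the variance between these libraries and the others of their group was at least 9.72 times that of counting error, against 3.20 to 3.62 for the other pairs of those groups. In V3 at R24 the pair of replicates 1 and 3 reached 11.3 and the other pairs 5.76 and 4.72, so its spread was also wide but no single library stood apart from both others. Results at R24 are therefore also given without these 3 libraries where a count allows it, an alternative chosen after the libraries were compared. CPM printed from here on were scaled by TMM (trimmed mean of M values), a factor per library that sets the bulk of genes equal. A CPM is a share of a library's RNA, so fewer cells of a kind and less RNA per cell cannot be told apart.

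The difference between KO and WT in trehalose is what selected the genes, so it is described here and not tested. The ratio of KO over WT at T48 ran from 1.81 to 7.26 with a median of 2.03. It lay under 2.2 for 43 of the 58 genes, and only 8 had a ratio of 3 or more. The nearest gene inside the threshold had a ratio of 1.81 and the nearest outside it 1.79952. All 3 KO libraries exceeded all 3 WT libraries for 55 of the 58 genes, a separation seen in 23.2% of the 6589 genes, and one that the choice of genes itself brings about.

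The highest ratio belonged to g5605. It was measured at 17.5, 17.9 and 18.6 CPM in the KO libraries, against 2.41, 0 and 3.61 CPM in WT. Next came g10989, with 142, 144 and 165 CPM in KO against 34.0, 26.0 and 27.1 CPM in WT. In both genes the KO libraries stand well clear of WT. The most counts in KO, which are not corrected for gene length, belonged to g14289, with 909, 857 and 837 CPM in KO against 360, 380 and 364 CPM in WT, and then to g6657, with 427, 450 and 455 CPM in KO against 225, 216 and 222 CPM in WT.

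After heat shock the ratio of KO over WT had a median of 1.18 over the 58 genes, and 40 of them lay above 1. The values span nearly the whole interval that the criteria allow, from 0.713 to 1.498, and the nearest gene above it had a ratio of 1.56. The smaller ratio at HS6h is what the criteria ask for, and the number of genes with the KO mean on the higher side depended on the scaling. For g10989 the heat-shocked KO libraries held 54.6, 51.8 and 56.1 CPM, against 47.8, 42.8 and 50.3 CPM in WT, so the KO libraries were still the higher ones. For g14289 they held 335, 311 and 355 CPM, against 274, 274 and 275 CPM in WT. Other genes of the 58 had nearly no RNA after heat shock. For 5 of the 58 genes, g5605 among them, the mean lay under 1 CPM in both KO and WT at HS6h, and the 0.5 CPM added draws their ratios toward 1. The g5605 values at HS6h were 0, 0 and 0.374 CPM in KO, against 0.377, 0 and 0.359 CPM in WT.

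**Figure D1:**
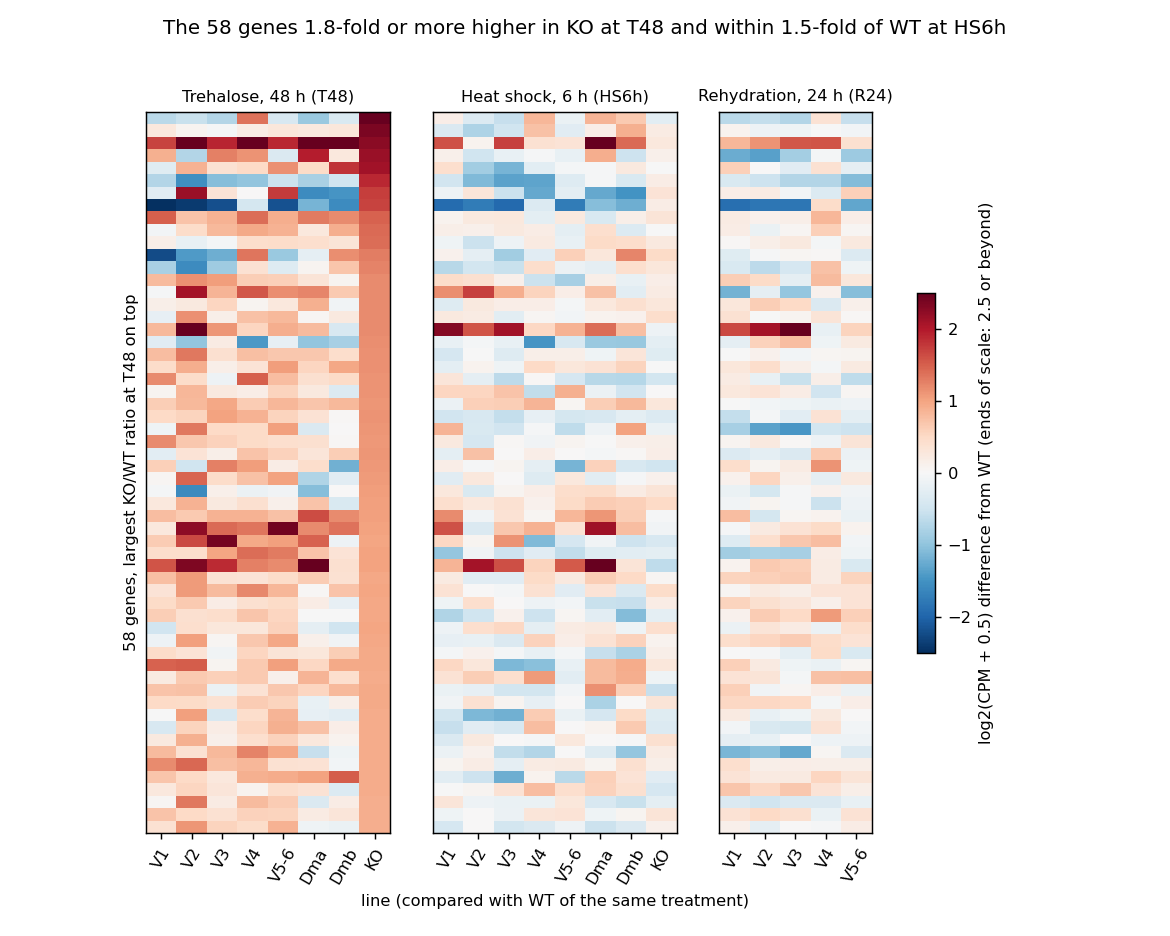
Each row is 1 of the 58 genes, ordered by the ratio of KO over WT at T48, and each column is a line. The colour is the difference in log2(CPM + 0.5) from WT of the same treatment, with the ends of the scale holding values of 2.5 or beyond. The KO column at T48 is red throughout because the genes were chosen on it. The lines at T48 show mostly weaker red, with blue for genes below WT, from 4 genes in V4 to 21 in Dmb. The panels at HS6h and R24 show both colours.

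The 58 genes differed from the 6589 in the number of transcripts annotated per gene. The median was 2 transcripts for the 58 genes and 3 for the 6589. A single transcript was annotated for 18 of the 58 (31.0%), against 1092 of the 6589 (16.6%). Because each gene is counted by the 1 transcript with the most reads, the annotation bears on the values, and when all transcripts of a gene were summed only 18 genes met the criteria, 11 of them among the 58. That drop follows in part from the CPM minimum: a library's total grows between 18.5 and 26.1 times when transcripts are summed, and 14 of the 58 genes still reached 5 CPM in KO. With the minimum scaled to the larger totals, an alternative chosen after the data were seen, 85 genes met the criteria and 50 of them were among the 58.

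Giving back an HSF1 form left most of the 58 genes between KO and WT in trehalose. Their median difference from WT on the log2(CPM + 0.5) scale was 0.67 in V2, 0.64 in V4, 0.62 in V5-6, 0.37 in V3, 0.33 in Dma, 0.30 in V1 and 0.18 in Dmb, while it was 1.08 in KO. Over the 6589 genes the median lay between -0.04 and 0.03 in these 8 lines. These figures are a description, because KO and WT at T48 selected the genes. Positions below KO and above WT are in part fixed by that choice. Medians near 0.6 mark lines in which the typical gene of the 58 stayed closer to KO, on this scale, than to WT.

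The number of the 58 genes above WT was 54 in V4, 50 in V5-6, 48 in V2, 47 in V3, 42 in Dma, 40 in V1 and 37 in Dmb. These are shares from 63.8% in Dmb to 93.1% in V4. Over the 6589 genes the share above WT lay between 46.4% in Dmb and 51.4% in V5-6. The WT values used here also chose the 58 genes, so an excess above WT is in part preset. The number nearer to WT than to KO was 41 in Dmb, 38 in Dma, 37 in V1, 37 in V3, 25 in V4, 22 in V2 and 22 in V5-6. For these 58 genes, most were thus nearer WT in Dmb, Dma, V1 and V3, and most nearer KO in V2, V4 and V5-6. This is a description, since the same KO and WT values chose the genes. The 96 genes with a ratio above 1.5 after heat shock as well put the lines in another order. Of them, 56 were nearer WT in V1, 55 in V2, 51 in V3, 48 in V5-6, 48 in Dmb, 46 in Dma and 44 in V4. The counts gene by gene that follow were not taken over all genes and describe the 58 alone. Of the 58, 31 were below KO in all 7 lines and 27 were above KO in at least 1 line. Of the 58 genes, 7 lay nearer WT in all 7 lines, 3 lay nearer KO in all 7, 19 were above WT in all 7 and 2 were below WT in all 7. The 3 nearer KO in all 7 lines were g14660, g15531 and g9495, and the 2 below WT were g6466 and g6813, named after their values were seen. The 5 genes above KO in 4 or more lines were g10626, g14660, g15333, g8602 and g9382. The 58 genes were thus uneven in the lines that carry an HSF1 form, and whether HSF1 holds any of them down in trehalose was not tested.

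A gene follows for each of 3 kinds: nearer WT in all 7 lines, below WT in all 7, and above KO in 4 or more. For g10989 the 21 libraries of the 7 lines at T48 lay between 25.6 and 40.3 CPM with a median of 34.4, within or close to the range of the WT libraries and far under the KO libraries. For g6813 they lay between 1.02 and 13.2 CPM with a median of 3.69, against 52.7, 65.7 and 48.4 CPM in KO and 17.7, 15.3 and 17.5 CPM in WT, so every library of every line was below WT as well. For g14660 the KO libraries held 13.1, 9.98 and 12.2 CPM against 1.34, 1.98 and 2.84 CPM in WT. The V4 libraries held 24.8, 22.7 and 22.6 CPM of it and the Dma libraries 23.6, 25.1 and 25.5 CPM, above KO and WT alike.

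**Figure D2:**
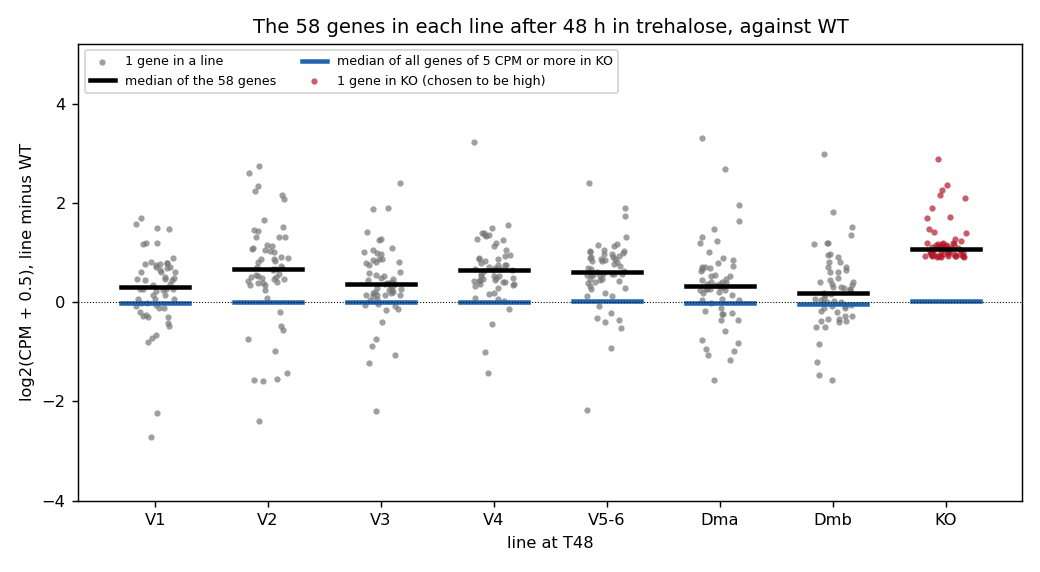
Points are the 58 genes in each line at T48 and the vertical axis is the difference from WT in log2(CPM + 0.5), with KO, on which the genes were chosen, in red. Black bars are medians over the 58 genes and blue bars medians over the 6589 genes. The black bars lie between 0.18 in Dmb and 0.67 in V2 while the blue bars stay near 0.

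The lines were next compared with each other in trehalose, in contrasts that hold no KO or WT library. V3 was the line they were set against, by edgeR's quasi-likelihood test with Benjamini-Hochberg adjustment over all 8255 genes tested at T48, and a gene counts as called at an adjusted p under 0.05. All 58 genes were among those tested. Every one of these comparisons uses the same 3 V3 libraries. V3 was chosen as the line nearest WT at T48 in an earlier analysis of these data, and WT at T48 also chose the genes, so an excess of calls higher than V3 is in part preset. A difference among the 7 lines was called for 40 of the 58 genes (69.0%), against a background of 71.4% of all genes tested, so the 58 genes varied among lines about as often as genes in general.

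V2, V4 and V5-6 held more of these genes at a higher level than V3. In V2, 19 (32.8%) were called higher and 8 (13.8%) lower, against backgrounds of 17.7% and 17.3% of all genes. In V4, 15 (25.9%) were called higher and 4 (6.9%) lower, against backgrounds of 8.89% and 11.3%. In V5-6, 13 (22.4%) were called higher and 4 (6.9%) lower, against backgrounds of 10.3% and 9.65%. The share called higher thus exceeded the background in all of these 3 lines, and the median log2 difference from V3 was 0.25 in V2, 0.21 in V4 and 0.32 in V5-6, with medians of all genes between -0.02 and 0.00. The same shares for the 96 genes that were higher in KO at both stresses were 30.2%, 34.4% and 27.1% called higher in V2, V4 and V5-6, so a raised share was not particular to the 58. The genes g12797, g427 and g16529 were the 3 called higher than V3 in each of V2, V4 and V5-6. The last of them was named after its values were seen.

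The gene with the largest called increase in both V2 and V5-6 was g13347. Its CPM were 70.0, 64.0 and 57.1 in V2 and 47.0, 46.1 and 49.2 in V5-6, against 18.6, 14.9 and 19.3 in V3. No V2 or V5-6 library overlapped V3, and the log2 differences were 1.88 ± 0.17 (SE) in V2 and 1.44 ± 0.17 in V5-6, with edgeR adjusted p of 1.27e-16 and 4.12e-11. The KO libraries, at 45.7, 49.4 and 45.6 CPM, were close to V5-6, and the WT libraries, at 15.3, 14.4 and 11.9 CPM, were close to V3. In g12797 the V2 libraries held 38.7, 51.0 and 42.4 CPM and the V4 libraries 29.3, 28.5 and 30.1 CPM, against 16.1, 14.0 and 18.2 CPM in V3. Both lines stood clear of V3, with log2 differences of 1.48 ± 0.17 in V2 (edgeR adjusted p 9.70e-12) and 0.86 ± 0.18 in V4 (edgeR adjusted p 8.32e-05).

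In V4 the largest called increases belonged to g15882 and g5605. For g15882 the V4 libraries held 11.4, 5.39 and 8.99 CPM, against 1.98, 0.877 and 0.289 CPM in V3, a log2 difference of 2.90 ± 0.51 (edgeR adjusted p 2.61e-06). For g5605, the gene with the highest ratio of KO over WT, they held 5.14, 6.06 and 6.56 CPM, against 0.991, 0.877 and 1.15 CPM in V3, a log2 difference of 2.52 ± 0.61 (edgeR adjusted p 9.00e-04). V4 was the only one of the 7 lines whose 3 libraries all exceeded every WT library of g5605, and all 3 were still far under KO. DESeq2 on the same counts gave an adjusted p of 0.0655 for g5605 and edgeR on summed transcripts 0.0525, so its call depends on the tool and on the counting of transcripts.

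For g6813 the V4 libraries, at 12.1, 13.2 and 11.4 CPM, were above the V3 libraries, at 2.78, 5.08 and 2.02 CPM, by 1.797 ± 0.30 on the log2 scale (edgeR adjusted p 9.54e-07). V4 was here the line nearest to WT. For g14289 the V4 libraries held 466, 475 and 490 CPM and the V2 libraries 120, 117 and 132 CPM, against 213, 179 and 203 CPM in V3. V4 was thus higher than V3 by 1.25 ± 0.07 (edgeR adjusted p 2.36e-30) and V2 lower, at -0.67 ± 0.07 (edgeR adjusted p 2.75e-13). This gene had the smallest p for any difference among the 7 lines at T48, 1.85e-52 by edgeR's quasi-likelihood F test, and its lowest and highest lines, V2 and Dmb, lay on either side of WT.

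The genes called lower than V3 in these lines were fewer than those called higher, and some recurred: g10626 was called lower in V2, V4 and V5-6, and g8800 in V2 and V5-6. In V2, g8800 held 0.246, 2.66 and 3.93 CPM, against 13.7, 9.99 and 8.08 CPM in V3, a log2 difference of -2.16 ± 0.37 (edgeR adjusted p 8.23e-07). In V4, g10626 held 4.02, 7.41 and 7.05 CPM, against 16.3, 16.1 and 20.8 CPM in V3, a log2 difference of -1.53 ± 0.30 (edgeR adjusted p 2.79e-05). V3 had the highest mean of the 9 T48 groups for g10626 and lay above KO, at 4.20, 5.25 and 9.75 CPM, so in this gene the change from V3 was toward both KO and WT.

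V1 and the Drosophila forms showed another balance. In V1, 3 of the 58 genes (5.17%) were called higher than V3 and 10 (17.2%) lower, against backgrounds of 12.5% and 11.5%. The median log2 difference from V3 over the 58 genes was -0.13 in V1, 0.09 in Dma and -0.08 in Dmb, so in Dma it had the opposite sign to the balance of calls given next. In V1 g10626 held 4.90, 4.47 and 5.40 CPM, the largest called decrease, at -1.79 ± 0.30 on the log2 scale (edgeR adjusted p 1.18e-06). In Dma, 7 (12.1%) were called higher and 13 (22.4%) lower, against backgrounds of 17.3% and 14.7%. In Dmb, 11 (19.0%) were called higher and 14 (24.1%) lower, against backgrounds of 20.5% and 16.8%. Without TMM scaling these counts were 3 higher and 18 lower in Dma and 5 higher and 25 lower in Dmb, and the median of all genes then moved to -0.27 and -0.39. Without V3 replicate 3 or Dma replicate 2, 4 genes were called higher in Dma.

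The 2 Drosophila lines are best seen in g14289 and g13347. Dmb held 610, 590 and 596 CPM of g14289 and Dma 363, 397 and 390 CPM, against 213, 179 and 203 CPM in V3, which are log2 differences of 1.63 ± 0.07 (edgeR adjusted p 3.28e-38) and 0.97 ± 0.07 (edgeR adjusted p 8.87e-23). Dmb was thus above WT and Dma level with it. For g13347 the Dma libraries held 5.34, 2.1997 and 5.54 CPM, a log2 difference from V3 of -1.97 ± 0.25 (edgeR adjusted p 2.40e-10). Both Drosophila lines were below every WT library of g13347, since Dmb held 2.96, 3.66 and 7.41 CPM.

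**Figure D3:**
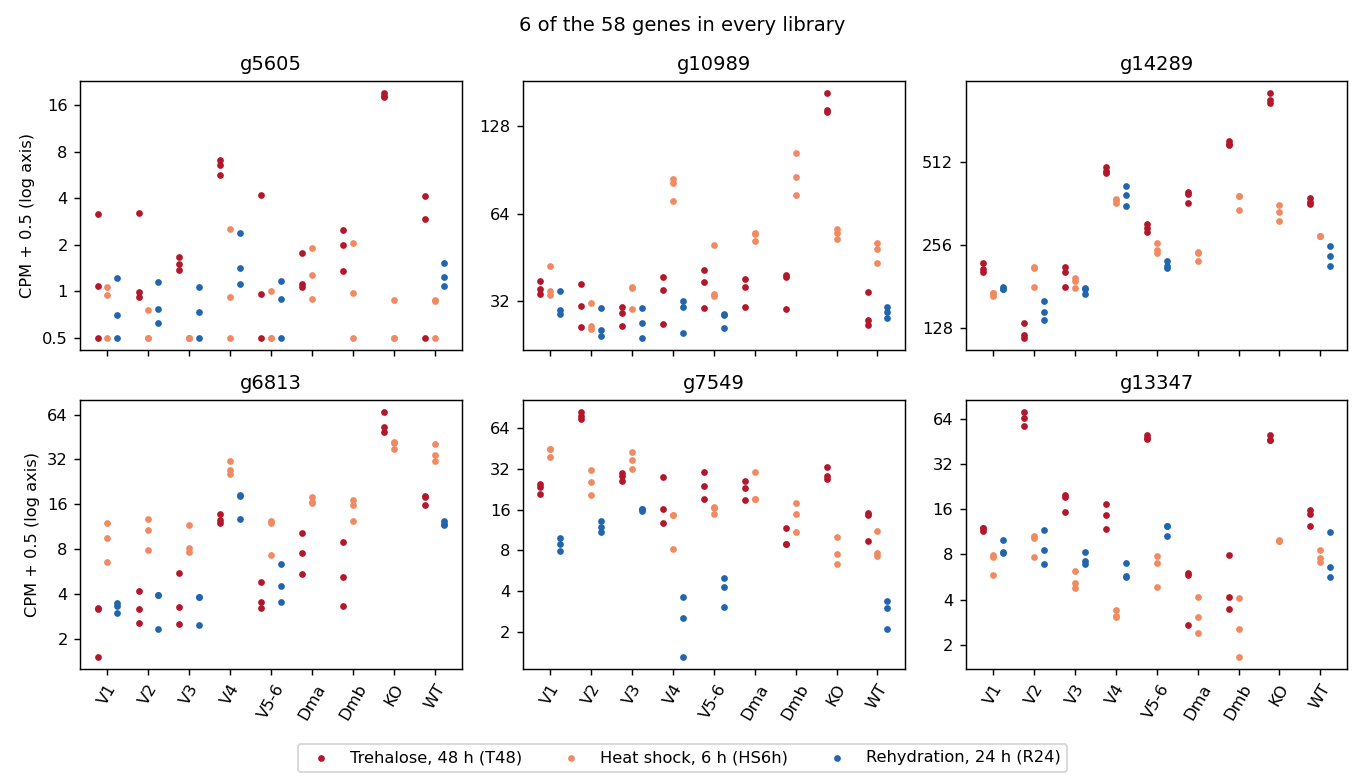
Every library is a point, for 6 of the 58 genes, in CPM + 0.5 on a logarithmic axis, by line and by treatment. In g10989 the T48 libraries of all 7 lines lie with WT, in g6813 they lie under WT, in g5605 V4 lies between KO and the other lines, and in g13347 V5-6 lies at the level of KO and V2 above it.

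After heat shock 53 of the 58 genes passed the filter on low counts, which used the groups of this treatment. Of these 53 genes, 36 (67.9%) were called for any difference among the 7 lines, against a background of 73.5% of 8264 genes. In V4, 13 (24.5%) were called higher than V3 and 6 (11.3%) lower, against backgrounds of 16.5% and 18.6%. In V5-6, 4 (7.55%) were called higher and 5 (9.43%) lower, against backgrounds of 12.8% and 14.5%, and without TMM scaling 5 higher and 4 lower. The share called higher was above the background in V4 and under it in V5-6, while the median log2 difference from V3 over the 53 genes was 0.11 in V4 and 0.18 in V5-6. The count lower in V5-6 was 3 without V5-6 replicate 1 or any single V3 library and 2 without V5-6 replicate 3. Whether the share in V5-6 differed between the treatments was not tested.

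The gene g12797 was higher than V3 in V4 and in V5-6 after heat shock too. Its libraries held 55.6, 47.4 and 50.8 CPM in V4 and 26.6, 25.6 and 34.6 CPM in V5-6, against 11.1, 14.4 and 16.5 CPM in V3. The log2 differences were 1.88 ± 0.17 in V4 (edgeR adjusted p 2.84e-15) and 1.03 ± 0.17 in V5-6 (edgeR adjusted p 2.10e-06), and here V4 lay above KO, at 20.2, 31.4 and 27.5 CPM, and above WT, at 32.4, 33.5 and 32.2 CPM. For g10989, where V4 over V3 was not called in trehalose, the heat-shocked V4 libraries held 83.6, 70.1 and 80.8 CPM, against 29.5, 35.0 and 35.3 CPM in V3, a log2 difference of 1.24 ± 0.13 (edgeR adjusted p 3.49e-12). Dmb was the only other line as high, with 73.6, 103 and 85.04 CPM, and both were above every KO and WT library of this treatment.

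The reverse order held for g7549. Its heat-shocked libraries held 14.1, 7.64 and 14.1 CPM in V4 and 14.3, 16.2 and 16.1 CPM in V5-6, against 42.0, 37.0 and 31.6 CPM in V3. The log2 differences from V3 were -1.60 ± 0.21 in V4 (edgeR adjusted p 2.76e-09) and -1.25 ± 0.20 in V5-6 (edgeR adjusted p 8.46e-07). KO, at 5.89, 9.55 and 7.10 CPM, and WT, at 10.7, 7.11 and 6.83 CPM, were both low. V3 and also V1, which held 44.3, 44.2 and 38.7 CPM, were the highest lines. Every library of V2, at 31.2, 20.1 and 25.1 CPM, of Dma, at 18.7, 18.9 and 30.0 CPM, and of V5-6 was above KO and WT as well.

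Whether V4 differed from V3 by another amount in trehalose than after heat shock was tested as an interaction over all 72 libraries and 9231 genes. The signed log2 difference of V4 over V3 was called higher at T48 than at HS6h for 5 of the 58 genes (8.62%) and lower for 2 (3.45%), against backgrounds of 7.62% and 5.02%, so the 58 genes did not stand apart from genes in general. A higher value at T48 includes genes in which V4 was below V3 mainly after heat shock. The split turned to 2 higher and 3 lower without TMM scaling. The count higher was 3 without replicate 2 of every group and 2 without replicate 3, and the count lower was 1 without replicate 1. For g14660 the V4 libraries exceeded V3 at T48, with 24.8, 22.7 and 22.6 CPM against 8.72, 7.36 and 11.0 CPM. At HS6h they were below V3, with 0.828, 1.53 and 1.43 CPM against 3.02, 5.84 and 2.94 CPM. This turn came to 3.03 ± 0.60 on the log2 scale (edgeR adjusted p 9.92e-05). For g10989 it went the other way, at -1.001 ± 0.20 (edgeR adjusted p 1.46e-04), since V4 exceeded V3 after heat shock.

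After rehydration no KO library was analysed, and the 5 lines were compared with WT in libraries that had no part in choosing the genes. Of the 58 genes, 55 passed the filter on low counts at R24, and all 5 comparisons use the same 3 WT libraries. A difference among the 5 lines was called for 29 of the 55 genes (52.7%), against a background of 56.1% of 8929 genes, and for 27 without the 3 libraries that stood apart. In V1, 7 genes (12.7%) were called higher than WT and 7 (12.7%) lower, against backgrounds of 11.0% and 9.72%. In V2, 11 (20.0%) were called higher and 6 (10.9%) lower, against backgrounds of 17.4% and 15.9%. In V3, 9 (16.4%) were called higher and 6 (10.9%) lower, against backgrounds of 15.3% and 15.2%.

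In V4, 11 (20.0%) were called higher than WT and 2 (3.64%) lower, against backgrounds of 12.4% and 14.9%, and without TMM scaling 19 higher and 0 lower, where the median of all genes moved to 0.27. The 2 lower in V4 were g12316 and g14120. In V5-6, 1 (1.82%), g5951, was called higher and 4 (7.27%) lower, against backgrounds of 7.69% and 8.98%, and without TMM scaling 8 higher and 1 lower. The count higher in V4 was 6 without WT replicate 2 and 7 without WT replicate 3 or V4 replicate 3, and the count lower fell to 0 without WT replicate 3 and to 1 without any other library but V4 replicate 3. The count higher in V5-6 was 0 without V5-6 replicate 1, 2 without V5-6 replicate 3 or WT replicate 1, and 3 without WT replicate 2, and the count lower was 2 without WT replicate 1. Both counts in V5-6 were under the background with TMM scaling. The median log2 difference from WT over the 55 genes lay between 0.05 in V3 and 0.17 in V4, against medians of all genes between 0.00 and 0.02. For the 94 tested genes of the set higher in KO at both stresses it lay between 0.17 in V5-6 and 0.65 in V4. In V4, 55 of those 94 (58.5%) were called higher than WT. Of the 55 genes, 23 were called in none of the 5 lines and 9 in 3 or more. Like counts over all genes tested were not taken, so these 2 numbers describe the 55 genes alone.

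A few genes set the lines apart from WT at R24. For g7549 the libraries held 15.1, 15.7 and 15.7 CPM in V3, 10.4, 12.6 and 11.4 CPM in V2 and 9.42, 8.42 and 7.39 CPM in V1, against 2.49, 2.86 and 1.61 CPM in WT. These 3 lines did not overlap WT, with log2 differences of 2.74 ± 0.28, 2.32 ± 0.29 and 1.87 ± 0.29 and edgeR adjusted p of 5.35e-08, 1.04e-06 and 4.12e-05. The V4 libraries, at 0.813, 3.11 and 2.05 CPM, overlapped WT. After heat shock the mean of g7549 was above WT in all 7 lines.

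For g6813 the order was opposite. The libraries held 2.81, 2.47 and 2.98 CPM in V1, 3.43, 3.46 and 1.84 CPM in V2 and 1.97, 3.35 and 3.35 CPM in V3, against 11.9, 11.2 and 11.3 CPM in WT. From WT, V1 differed by -2.02 ± 0.27 on the log2 scale, V2 by -1.93 ± 0.27, V3 by -1.95 ± 0.26 and V5-6 by -1.38 ± 0.25, with edgeR adjusted p of 5.28e-06, 5.15e-06, 3.68e-06 and 3.60e-04. Every library of these 4 lines lay below WT, as at T48, while V4, at 17.7, 12.3 and 18.0 CPM, lay above it.

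In g14120 the V3 libraries held 27.6, 22.5 and 23.7 CPM and the V2 libraries 28.3, 25.1 and 27.0 CPM, against 66.3, 62.9 and 75.5 CPM in WT, with log2 differences of -1.47 ± 0.13 (edgeR adjusted p 3.40e-09) and -1.32 ± 0.13 (edgeR adjusted p 2.27e-08). It was also called lower in V1, by a log2 difference of -0.82 ± 0.12 (edgeR adjusted p 2.47e-05), and in V5-6, at -0.51 ± 0.12 (edgeR adjusted p 0.00427), where without TMM scaling the adjusted p was 0.0905. In V4 the difference was -0.45 ± 0.12 (edgeR adjusted p 0.00777), and it missed the threshold without TMM scaling (0.338), with summed transcripts (0.0565) and without WT replicate 3 (0.0516). For g14289, V4 was above WT, with 354, 419 and 389 CPM against 232, 252 and 213 CPM, and V3 below it, with 178, 169 and 177 CPM. The log2 differences were 0.75 ± 0.08 in V4 (edgeR adjusted p 1.34e-07) and -0.40 ± 0.08 in V3 (edgeR adjusted p 3.99e-04). V4 was thus the higher line of this pair in trehalose, after heat shock and after rehydration.

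**Figure D4:**
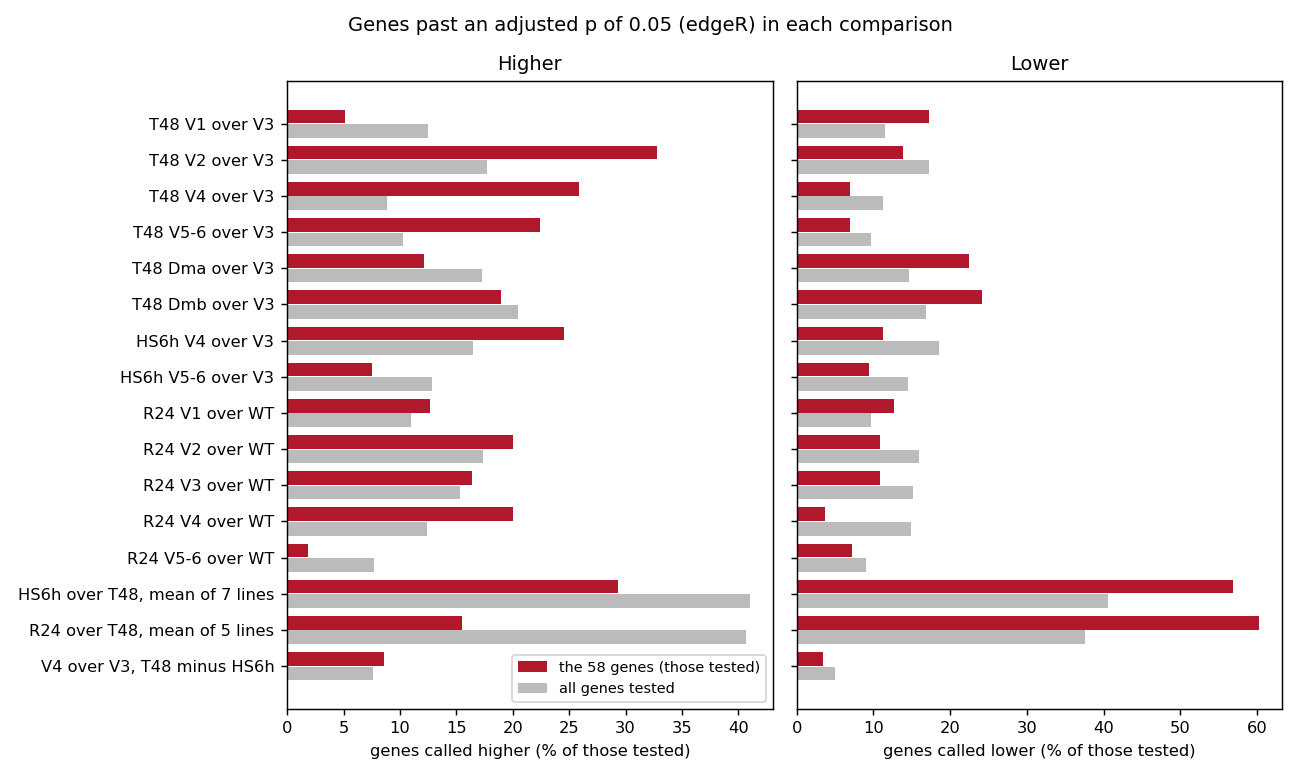
Bars give the percentage of genes called higher (left) or lower (right) in each comparison at an edgeR adjusted p under 0.05, among the 58 genes that were tested (red) and among all genes tested (grey). The red bar exceeds the grey one for genes called higher in V2, V4 and V5-6 over V3 at T48, and for genes called lower at HS6h and R24 over T48. Other bars where it does so include genes called lower in V1, Dma and Dmb over V3 at T48. They also include genes called higher in V4 over V3 at HS6h and in V4 over WT at R24.

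More of the 58 genes were lower than higher after heat shock and after rehydration, relative to trehalose, in the lines that carry an HSF1 form. Averaged over the 7 lines, 33 of the 58 genes (56.9%) were called lower at HS6h than at T48 and 17 (29.3%) higher, against backgrounds of 40.6% and 41.0% of 9231 genes. Averaged over the 5 lines measured at R24, 35 (60.3%) were called lower at R24 than at T48 and 9 (15.5%) higher, against backgrounds of 37.6% and 40.7%. The median log2 difference was -0.42 in both comparisons, against 0.00 and 0.04 over all genes. The comparisons share their T48 libraries and cannot stand as support for each other. The criteria also asked for 5 CPM or more in KO at T48 and set no minimum at HS6h or R24. The 9231 background genes were not held to that minimum, so an excess of calls lower than T48 may be in part preset.

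The 2 scalings gave different sizes. Without TMM scaling, 43 were called lower and 9 higher at HS6h, where the median of all genes moved to -0.39, and 27 lower and 14 higher at R24, where it moved to 0.22. More of the 58 genes were called lower than higher under both scalings. Without the 3 libraries that stood apart, 34 were called lower and 8 higher at R24. Of the 96 genes higher in KO at both stresses, 54 (56.2%) were called lower at HS6h, close to the share of the 58, and 45 (46.9%) at R24.

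Line by line, the median of the 58 genes at HS6h minus T48 was -0.72 in V2, -0.68 in V4, -0.50 in V5-6, -0.47 in V3, -0.20 in V1, -0.06 in Dmb and -0.05 in Dma on the log2(CPM + 0.5) scale. Over the 6589 genes it lay between -0.07 and 0.02 in these lines. In KO it was -1.10 and in WT 0.02, a contrast that the choice of genes fixes. At R24 minus T48 it was -0.64 in V5-6, -0.62 in V2, -0.38 in V4, -0.27 in V1 and -0.21 in V3, against -0.11 in WT. The lines with the highest levels in trehalose (V2, V4 and V5-6) were those with the largest decreases in both. Since a line's T48 libraries enter its level and both decreases, this order is a description.

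The largest decrease under both stresses was that of g9382. In the 21 libraries of the 7 lines it lay between 0.514 and 9.53 CPM at HS6h with a median of 3.52, and between 17.5 and 106 CPM at T48 with a median of 45.7. In the 15 libraries at R24 it lay between 2.21 and 6.36 CPM with a median of 4.30. No library of heat shock or rehydration reached the trehalose libraries, and the log2 differences were -3.84 ± 0.09 at HS6h (edgeR adjusted p 2.99e-56) and -3.58 ± 0.09 at R24 (edgeR adjusted p 7.84e-54). For this gene Dma, at 86.2, 106 and 106 CPM, and V2, at 70.9, 78.8 and 83.6 CPM, were above KO in trehalose, at 31.0, 31.8 and 29.3 CPM, and WT held 18.0, 15.8 and 11.4 CPM.

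Another large decrease at HS6h was that of g8607. It lay between 16.4 and 38.5 CPM with a median of 24.7 at HS6h, and between 63.9 and 139 CPM with a median of 118 at T48, a log2 difference of -2.10 ± 0.05 (edgeR adjusted p 4.84e-55). A large decrease at R24 was that of g3543, with 0.116 to 1.89 CPM and a median of 0.614 at R24 and 2.08 to 8.40 CPM and a median of 5.14 in the same lines at T48. Its log2 difference was -2.76 ± 0.21 (edgeR adjusted p 1.44e-20). In both genes the treatments did not overlap.

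Some of the 58 genes went against the rest. At HS6h g13155 lay between 10.4 and 25.1 CPM with a median of 17.5, and at T48 between 2.25 and 9.84 CPM with a median of 4.44, a log2 difference of 1.88 ± 0.10 (edgeR adjusted p 3.28e-30). For g6813 the 21 libraries lay between 6.04 and 30.8 CPM with a median of 11.9 at HS6h and between 1.02 and 13.2 CPM with a median of 3.69 at T48, a log2 difference of 1.51 ± 0.11 (edgeR adjusted p 1.68e-21). At R24 g8113 lay between 13.6 and 43.5 CPM with a median of 18.2, and in the same 5 lines at T48 between 3.69 and 10.2 CPM with a median of 5.69, a log2 difference of 1.89 ± 0.13 (edgeR adjusted p 1.51e-23). In g13155 and g8113 the treatments did not overlap, and in g6813 they did.

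**Figure D5:**
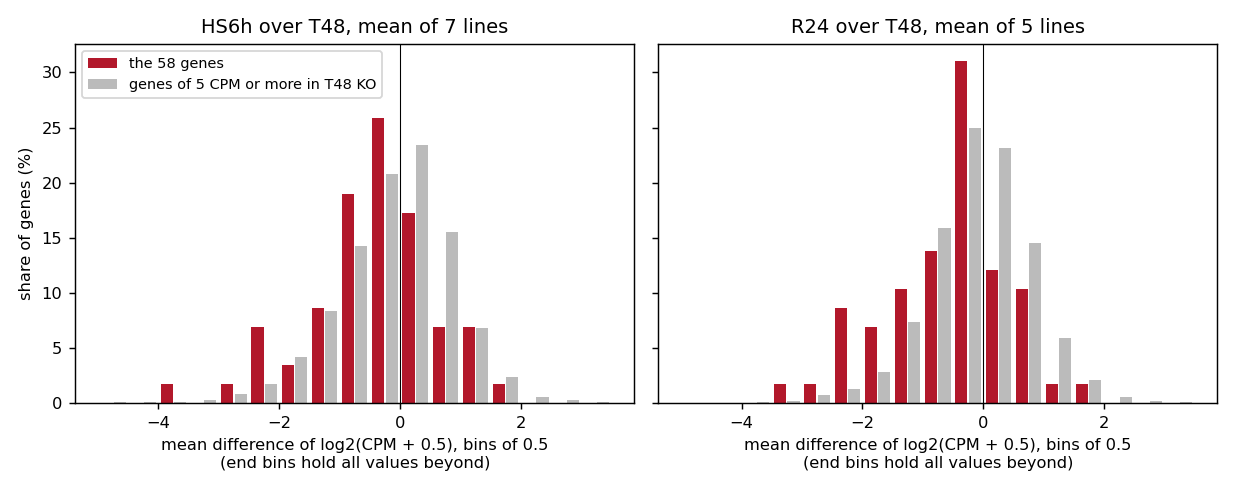
Histograms of the mean difference in log2(CPM + 0.5) between HS6h and T48 over 7 lines (left) and between R24 and T48 over 5 lines (right), in bins of 0.5, for the 58 genes (red) and the 6589 genes (grey), as a share of each set. The bulk of the red bars lies further to the left than that of the grey bars in both panels. The red bars reach past -3, where g9382 lies, and the grey bars reach further still.

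Across the 19 groups of lines with an HSF1 form, the pattern of g5605 was most like those of g931 and g15412 among the 58 genes, with Pearson correlations of log2(CPM + 0.5) of 0.771 and 0.754. These are descriptions over groups that share treatments and library depth, and g5605 was near 0 CPM in many of them.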

How the data were processed

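The 72 libraries are of polyA RNA and fall into 24 groups of 3. The authors deposited counts of reads per transcript, whole numbers without normalization. The tools named in the submitters' processing notes are FastQC 0.11.9, Trimmomatic 0.39, HISAT2 2.2.1 and HTSeq 2.0.9. The genome build, annotation and strand setting are not given in the sources used here, so a read cannot be assigned between overlapping or antisense genes.

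The table holds 65235 transcripts of 17156 genes and 5 special rows, which were left out of library sizes. Reads without a feature made up 38.3% to 46.5% of gene counts and such reads together. A gene was represented by its transcript with the highest total. None of the gene IDs matched the 17863 loci of the reference table for the species, so no name, function or sequence is given. Between libraries within a group (72 pairs), the variance was 2.21 to 15.3 times that of counting error with a median of 3.14, so no library was a copy of another.

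The 58 genes, the set of 96 genes and the comparisons, V3 as the line of reference among them, were chosen with earlier results of these data known. V3 was taken because it lay nearest WT at T48 in an earlier analysis. Counts were fitted with edgeR 4.0.16 in R 4.3.3: filterByExpr with the groups, TMM scaling, the quasi-likelihood test, and Benjamini-Hochberg adjustment over all genes tested, with an adjusted p under 0.05 as the threshold. The fits held 27 libraries at T48, 27 at HS6h and 18 at R24, and 72 for contrasts across treatments, with no covariate, since the labels give no batch. The filter kept 58 of the 58 genes at T48, 53 at HS6h and 55 at R24. The procedure was checked on simulated counts with known changes. Named genes are up to 2 in each direction per comparison with the largest log2 difference among called genes of 5 CPM or more in 1 group whose libraries do not overlap, up to 2 with the smallest p for differences among lines, and the 2 with the highest ratio and the 2 with the highest CPM in KO at T48. A gene named in 1 comparison is also given in others, and fewer than the rule allows are given for some. Alternatives were RLE scaling, no scaling beyond the column sum, no filter on low counts, DESeq2 1.42.0, summed transcripts, 1 fit of all libraries, and leaving out each library. For contrasts across treatments, 1 replicate of every group was left out together.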

Additional observations from a re-analysis of the deposited data

Results flagged for a closer look

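The difference between V4 and V3 was not the same in trehalose as after heat shock for 7 of the 58 genes, by edgeR's quasi-likelihood test of the interaction itself with Benjamini-Hochberg adjustment over 9231 genes. The signed log2 difference of V4 over V3 was called higher at T48 than at HS6h for 5 of the 58 (8.62%) and lower for 2 (3.45%). The backgrounds were 7.62% and 5.02%, so the 58 genes did not stand apart from genes in general. Without TMM scaling the split was 2 higher and 3 lower. Of the genes named, g14660 changed by 3.03 ± 0.60 on the log2 scale (edgeR adjusted p 9.92e-05), with V4 above V3 at T48 and below it at HS6h. For g12316 the change was 1.36 ± 0.36 (edgeR adjusted p 0.00530), with 12.7, 13.2 and 18.0 CPM in V4 against 15.7, 14.0 and 16.4 CPM in V3 at T48, and 3.10, 6.63 and 5.72 CPM in V4 against 14.2, 15.3 and 11.6 CPM in V3 at HS6h. V4 and V3 overlapped at T48 and did not at HS6h for this gene, and without replicate 1 of each group its adjusted p was 0.0834. For g10989 the change was -1.001 ± 0.20 (edgeR adjusted p 1.46e-04). For g12797 it was -0.99 ± 0.25 (edgeR adjusted p 0.00394), and without replicate 1 of each group its adjusted p was 0.127.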

How the results depend on the processing

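No paired analysis was possible because the labels give no replicate numbers, only running library numbers. With summed transcripts 18 genes met the criteria, against 58, with 11 shared; TMM-scaled CPM gave 82, with 55 shared. Without scaling beyond the column sum, calls over V3 at T48 came to 3 higher in Dma and to 5 higher and 25 lower in Dmb. Calls over WT at R24 then came to 19 higher and 0 lower in V4 and to 8 higher and 1 lower in V5-6, and the calls higher were 9 at HS6h over T48, 14 at R24 over T48 and 2 in the interaction. With summed transcripts, 3 were lower in V5-6 at HS6h and 1 in V4 at R24. A fit of all libraries gave 4 higher in V1, 1 lower in V4 and 2 higher in V5-6 at R24, and no filter 2 higher in V5-6. Over alternatives other than leaving out a library, 193 of 210 counts stayed within 1.5 times; the cause of the other changes was not tested.

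Leaving out 1 library gave 53 to 74 genes meeting the criteria. Calls of any difference among lines then ranged from 39 to 43 at T48, 35 to 41 at HS6h and 24 to 29 at R24. Over V3 at T48, calls higher and lower ranged from 3 to 4 and 7 to 9 in V1, 15 to 19 and 7 to 9 in V2, 12 to 14 and 3 to 4 in V4, 9 to 14 and 3 to 4 in V5-6, 4 to 8 and 10 to 12 in Dma, and 8 to 11 and 12 to 13 in Dmb. At HS6h they ranged from 10 to 14 and 5 to 7 in V4, and from 4 to 5 and 2 to 4 in V5-6. Over WT at R24 they ranged from 5 to 7 and 5 to 7 in V1, 8 to 12 and 5 to 6 in V2, 6 to 10 and 5 to 6 in V3, 6 to 12 and 0 to 2 in V4, and 0 to 3 and 2 to 4 in V5-6. For the contrasts across treatments, 1 replicate of every group was left out at a time. HS6h over T48 then gave 15 higher and 30 to 31 lower, R24 over T48 8 to 9 and 30 to 34, and the interaction 2 to 4 and 1 to 3. Of 78 results for named genes, 64 stayed past the threshold in every alternative; 36 of 975 values missed it and none changed sign. Genes of few counts, such as g5605, are the least precise.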
